A study of Homo sapiens with 18 samples.

Results

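The probes described here are the long intergenic noncoding RNA (lincRNA) probes of an Agilent SurePrint G3 Human GE 8x60K array whose only identity is a stretch of the genome. They were chosen by name and annotation alone: noncontrol probes of the A_19 series whose systematic name is a genomic interval of build hg19 with a strand, F or R. The rule used no measured value. It gave 7660 probes of the 42405 on the array, designed to 4853 intervals on 23 chromosomes. Of these intervals, 2022 have probes to both strands, and the F strand has 3761 probes and the R strand 3899. Intervals run from 70 to 1392201 bases with a median of 11301 bases, and the annotation does not say where in an interval a probe lies. Many intervals overlap, so they were also merged into 2404 loci. A single interval makes up 1533 loci, 5 or more make up 174, and the locus with the most intervals, chr6:21664464-22221946, holds 44. Probes of a locus can read the same transcript and are not independent of each other. No sequence of these probes was available here, and no gene annotation of build hg19, so intervals are named by position alone.

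A lincRNA is a long RNA transcribed from DNA between protein-coding genes that carries no known protein. Many are spliced and polyadenylated like messenger RNA, are made in few cell types and at low level, and some act in the nucleus on chromatin or on nearby genes. In hepatocellular carcinoma (HCC) lincRNAs are often expressed differently from normal liver, and for most of them no role is known.

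RNA came from cells positive for the surface marker EpCAM, taken from Huh1 and Huh7, established HCC lines, with treatment for 48 hours. Each line had 3 groups of 3 arrays, 18 arrays in all: control, disulfiram (DSF, 0.1 µM), an inhibitor of aldehyde dehydrogenase, and 5-fluorouracil (5-FU, 1 µM), a pyrimidine analog used in chemotherapy. The study set DSF against 5-FU in tumor-initiating cells, and the comparisons here ask which lincRNA intervals each drug changed in each line. The methods describe DSF given with copper chloride and do not say what control cells received, so copper and DSF cannot be told apart. The sources do not settle whether cells were sorted before or after treatment. In bulk RNA, fewer cells of a kind and less RNA per cell cannot be told apart.

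The 8 markers of the sorted HCC cells, among them EPCAM, AFP, ALB and GPC3, were well above background on all 18 arrays. The 8 markers of blood, endothelial, stromal and macrophage cells were mixed. COL3A1 and ACTA2 were above background on 0 arrays, CD3E on 3, COL1A1 on 7 and VWF on 13. PTPRC, PECAM1 and CD68 were above it on all 18. The arrays lay on 3 slides, each with its own scan. The first slide held the Huh1 arrays except the third DSF array, which lay on the second slide with the Huh7 arrays, and the third slide held 2 arrays alone, the second and the third of Huh7 DSF. Values for DSF in Huh7 are therefore also given without those 2 arrays, which leaves 1 Huh7 DSF array whose spread is assumed to be that of the other groups. The 5-FU and control arrays of a line shared a slide. With the third Huh1 DSF array left out, so that the other Huh1 DSF and control arrays share a slide, DSF raised 510 interval probes and lowered 324 in Huh1, against 566 and 357 with all arrays. Replicate arrays correlated at 0.989 to 0.997 over the 29760 probes tested below.

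lincRNA interval probes were detected less often than the probes of the other 4 series. On an array, 46.1% to 63.1% of them (median 52.2%) were well above background by the scanner software's flag, and the share was lower than in the A_23, A_24, A_32 and A_33 probe series on 18 of 18 arrays. The gap was 16.8 to 27.8 percentage points against the A_23 series and 1.53 to 7.97 points against the A_33 series. Against the other probes of the A_19 series, named by transcript or by an interval of another build, there was no such gap: the interval probes were lower on 9 of 18 arrays, and the median share of those probes was 52.75%. Over the 7642 interval probes with an unflagged spot on every array, 2893 were above background on all 18 arrays (37.9%) and 1804 on none (23.6%). In the 34068 probes of the other 4 series the shares were 56.3% and 17.3%. Detection was similar over most of the range of interval lengths: 39.5%, 39.7% and 39.6% of probes were on all 18 arrays in the 3 shorter quartiles, and 32.3% in the longest quartile, of 31884 bases and more.

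**Figure D1:**
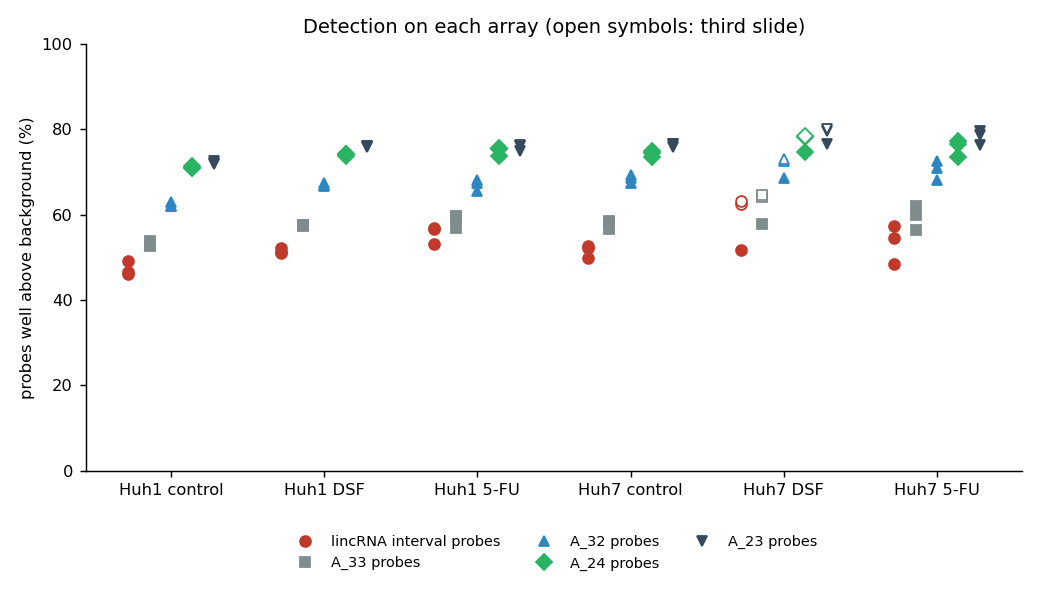
Share of probes well above background (%, y axis) on each array, by group (x axis) and probe series; each point is 1 array and open symbols mark the third slide. The lincRNA interval probes lay between 46.1% and 63.1%, below the other 4 series on every array, and both open Huh7 DSF points (62.5% and 63.1%) lay above the third (51.7%).

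Detection rose after both drugs in Huh1, for interval probes and for the other probes alike. The control arrays had 46.1%, 46.6% and 49.1% above background, the DSF arrays 51.1%, 51.3% and 52.3%, and the 5-FU arrays 53.1%, 56.7% and 57.0%. Over the probes of the other 4 series together the shares were 62.5% to 63.4% in control, 66.8% to 67.0% after DSF and 66.1% to 68.1% after 5-FU. Both treated groups lay above all 3 controls for either kind of probe, although 3 arrays against 3 cannot give an exact two-sided permutation p below 0.1. In Huh7 the control arrays had 49.9%, 52.1% and 52.6%, the 5-FU arrays 48.5%, 54.7% and 57.3%, and the DSF arrays 51.7%, 62.5% and 63.1%. The Huh7 groups overlapped, and the high DSF values were those of the third slide. Counting probes above background on no control array and on all 3 treated arrays, 219 interval probes came on after 5-FU in Huh1 (2.86%, against 1.89% of all other probes). The shares were below those of other probes in the other contrasts: 124 after DSF in Huh1 (1.62%, against 2.52%), 94 after DSF in Huh7 (1.23%, against 1.45%) and 71 after 5-FU in Huh7 (0.93%, against 1.26%). The reverse, from all 3 controls to no treated array, was seen for 4 interval probes after 5-FU in Huh1 (0.052%, against 0.043% of other probes), 4 after DSF in Huh1 (0.052%, against 0.098%), 8 after DSF in Huh7 (0.10%, against 0.29%) and 30 after 5-FU in Huh7 (0.39%, against 0.36%).

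Of the 7660 interval probes, 4399 (57.4%) passed the detection flag on every array of 1 or more groups and were tested, against 82.2% of the A_23 and 63.8% of the A_33 probes. Of these, 367 passed through 1 group only, most often Huh7 DSF (125) or Huh1 5-FU (122). A probe was called at an adjusted p under 0.05 in a limma fit over all 29760 tested probes. In Huh1, DSF raised 566 interval probes and lowered 357, or 21.0% of those tested, against 44.3% of all probes (24% higher and 20.4% lower). In Huh7, DSF raised 1013 and lowered 390 (31.9%, against 46.9% of all probes, 27.4% higher and 19.4% lower). 5-FU raised 583 and lowered 794 in Huh1 (31.3%, against 48.3% of all probes, 22.3% higher and 26% lower). In Huh7, 5-FU raised 643 and lowered 1107 (39.8%, against 57.2% of all probes, 27.4% higher and 29.8% lower). Interval probes were thus called less often than probes at large in each drug contrast. Some calls rested on signals with no array of either group above background: 25 for DSF in Huh1, 9 for DSF in Huh7, 62 for 5-FU in Huh1 and 13 for 5-FU in Huh7. In that order these were 2.71%, 0.64%, 4.50% and 0.74% of the calls, against 2.43%, 1.56%, 5.18% and 0.89% over all probes. Arrays of the groups did not overlap for 35.6% of tested interval probes after DSF in Huh1 (59.2% of all), 38.9% after DSF in Huh7 (60.6%), 40.9% after 5-FU in Huh1 (56.2%) and 52.2% after 5-FU in Huh7 (66.4%).

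The interval probes were dim and their changes less precise: the median standard error of a log2 change was 0.199, against 0.131 over all tested probes. Of the tested interval probes, 42.9% lay in the dimmest quartile of all tested probes and 6.84% in the brightest. Within quartiles of level they were also called less often than the other 4 series in every quartile of each drug contrast. In the brightest quartile the shares were 34.6% against 55.3% for DSF in Huh1, 43.5% against 55.6% for DSF in Huh7, 59.8% against 63.8% for 5-FU in Huh1 and 63.8% against 71.1% for 5-FU in Huh7. Matching on level did not match precision: the median standard errors were 0.167 against 0.151, 0.122 against 0.097 and 0.101 against 0.078 from the second quartile to the brightest, and 0.280 against 0.292 in the dimmest. Changes beyond 1 on the log2 scale were seen for 272 of 923 and 291 of 1403 called interval probes for DSF, in Huh1 and Huh7. For 5-FU they were seen for 357 of 1377 and 653 of 1750. Such changes were not counted over all probes, so these counts have no reference.

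**Figure D2:**
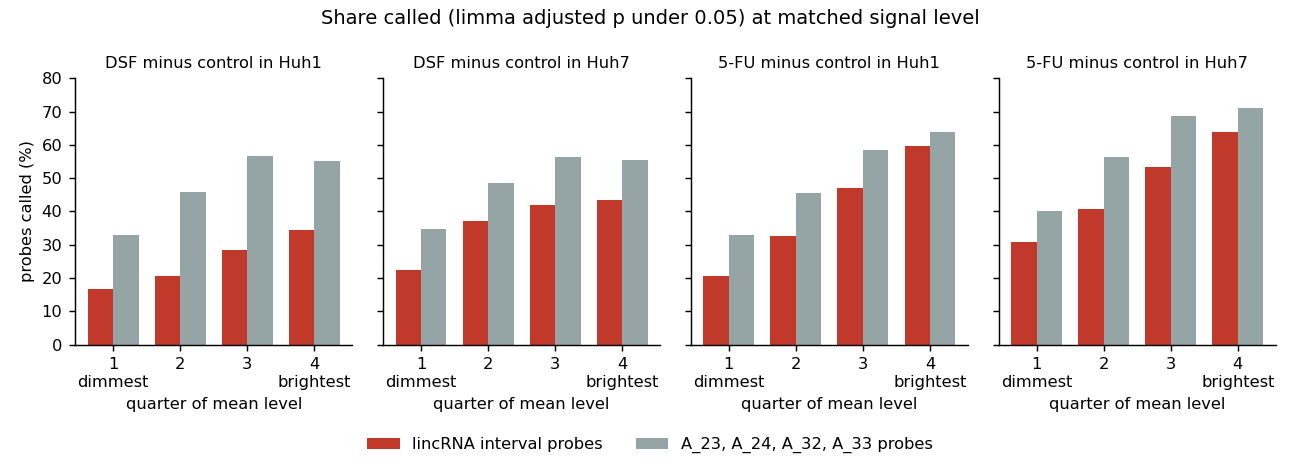
Share of tested probes called (%, y axis) in quartiles of the mean signal of all tested probes, from the dimmest to the brightest (x axis), in the 4 drug contrasts; red bars are lincRNA interval probes and grey bars the A_23, A_24, A_32 and A_33 probes. Red bars are below grey bars in all 16 pairs, for example 34.6% against 55.3% in the brightest quartile for DSF in Huh1.

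The balance of rises and falls depended on how arrays were scaled. Spike-in control probes as the scale raised the median of all tested probes after 5-FU by 0.83 in Huh1 and 0.98 in Huh7 on the log2 scale, and the interval probes called higher then numbered 3170 in Huh1 and 3160 in Huh7, and those called lower 35 and 120. Rises were then 98.9% and 96.3% of the interval probe calls, against 98.4% and 95.6% of the calls over all probes. With normexp background correction the rises were 381 in Huh1 and 441 in Huh7, and the falls 2175 and 2310. Rises made up 14.9% and 16.0% of these calls, against 29.9% and 35.8% over all probes. For DSF in Huh1, where median scaling moved the median of all probes by -0.17 and spike-in scaling by 0.14, the counts were 380 and 908 with median scaling, 409 and 729 with quantile normalization and 674 and 127 with spike-ins. For DSF in Huh7 they were 434 and 449 with spike-ins (a shift of -0.18) and 719 and 508 with normexp. Without the third slide, 281 were called higher and 218 lower in Huh7 (11.3%, against 27.5% of all probes), and the median change of interval probes went from 0.20 to 0.0005. All changes below are relative to the 75th percentile of each array.

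Calls the same way in both lines were fewer. After DSF, 174 interval probes of 132 loci rose in both lines (3.96%, against 9.95% of all probes), 88 of 55 loci fell in both (2.00%, against 7.65%) and 114 were called in opposite directions (2.59%, against 7.01%). Without the third slide these counts were 95, 64 and 50. After 5-FU, 308 of 186 loci rose in both (7.0%, against 13.3%), 499 of 366 loci fell in both (11.3%, against 16%) and 91 were opposite (2.07%, against 5.22%). All of these shares were below those of probes at large. The 5-FU counts were 2662 and 15 with spike-in scaling and 183 and 1605 with normexp.

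The interval with the most pronounced response to DSF was chr15:74770410-74782627 on the R strand, of 12218 bases. Values here and below are log2 signals relative to the array's 75th percentile. In Huh1 its 3 control arrays read -7.83, -6.03 and -7.24, none above background, and its DSF arrays read 3.64, 3.48 and 3.48. The rise was 10.57 ± 0.33 (SE; limma adjusted p = 1.68e-11), or at least 547-fold when the control is set at the lowest signal above background. In Huh7 the control arrays, all above background, read -4.93, -5.33 and -5.38 and the DSF arrays -0.99, -0.89 and -1.05, a rise of 4.24 ± 0.33 (adjusted p = 2.19e-07). All DSF arrays lay above all controls in both lines, and the rise was 4.22 in Huh7 without the third slide. After 5-FU the change was 0.44 in Huh1 and 0.41 in Huh7 (adjusted p = 0.291 and 0.305), so no call was made for this drug.

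4 more intervals were named for the size of their mean rise after DSF over both lines, ranked by fitted values in which a group at background enters at its measured signal. On the R strand of chr3:195441633-195441971 the Huh1 control arrays read -3.02, -3.17 and -3.21 and the DSF arrays -0.49, -0.44 and -0.42 (a rise of 2.68 ± 0.22, adjusted p = 4.4e-07). In Huh7 no control array was above background (-8.19, -7.21 and -7.04), and the DSF arrays read -1.57, -1.67 and -1.64, at least 20.5-fold higher (adjusted p = 2.58e-10). This interval was also higher after 5-FU, by 1.25 in Huh1 (adjusted p = 0.000366) and at least 6.87-fold in Huh7 (adjusted p = 1.97e-09). The F strand of chr8:590406-605477 was dark in both control groups, with -7.72, -7.65 and -7.68 in Huh1 and -8.23, -8.04 and -8.24 in Huh7. It read -3.10, -3.15 and -3.09 after DSF in Huh1 (at least 5.45-fold) and -5.17, -5.16 and -4.92 in Huh7 (at least 1.87-fold). On the F strand of chr6:43770929-43810362 the bounds after DSF were at least 3.74-fold in Huh1 and 1.54-fold in Huh7, and after 5-FU at least 3.1-fold and 2.32-fold. The R strand of chr11:130714094-130732005 rose at least 4.3-fold in Huh1, where DSF arrays read -3.38, -3.74 and -3.25 and controls -7.50, -7.42 and -7.44, whereas in Huh7 no array of either group was above background, so that its rank rests on a value there that was not measured above background.

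Falls after DSF in both lines were smaller. The F strand of chr17:67547498-67549996, above background on all arrays, read -0.16, 0.19 and 0.22 in Huh1 control and -1.14, -1.27 and -1.17 after DSF (-1.28 ± 0.18, adjusted p = 4.26e-05). In Huh7 it read 0.55, 0.74 and 0.67 in control and -0.21, -0.26 and -0.34 after DSF (-0.92 ± 0.18, adjusted p = 0.000701). The overlapping interval chr17:67543555-67550405 on the same strand changed by -1.83 in Huh1 and -1.44 in Huh7, with at most 1 array above background in each DSF group. On the R strand of chr4:114757926-114773251 Huh7 went from -1.13, -1.39 and -1.38 to -2.52, -2.86 and -2.83 (-1.44 ± 0.11, adjusted p = 1.59e-07). In Huh1 its fitted change was -0.74, a fall to background of at least 1.62-fold. At chr6:64239166-64256216 F the signal changed by -1.18 and -0.97 in Huh1 and Huh7, the latter with adjusted p = 0.00698 and 0.0691 without the third slide. The R strand of chr5:1175554-1178709 went from -1.42, -1.46 and -1.54 to -3.07, -2.80 and -3.09 in Huh7 (-1.52 ± 0.36, adjusted p = 0.00327), while in Huh1 it was above background on 1 control array only.

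Some intervals were called after DSF in a single line. Both chr14:101296681-101298460 and chr14:101430757-101433381, on the F strand, were above background only in the Huh1 DSF group among the 6 groups. The first read -2.12, -2.28 and -2.46 there and -7.58, -7.53 and -7.56 in Huh1 control, at least 9.68-fold higher. The second read -2.93, -2.83 and -3.29 and -7.69, -7.64 and -7.67, at least 5.85-fold higher. Both passed the filter through that group alone, so no test is given. In Huh7 the R strand of chr6:147172226-147237021 went from -7.87, -7.78 and -8.00, none above background, to -4.33, -4.58 and -4.97 after DSF, at least 2.57-fold (adjusted p = 2.26e-06). The falls named for Huh7 DSF reached background: chr2:102600227-102601998 F fell at least 2.17-fold, chr12:109563167-109568767 F at least 2.99-fold and chr15:67276445-67351512 F at least 1.9-fold. In Huh1, chr5:95351569-95628894 F went from -2.41, -1.10 and -0.97 to -3.73, -3.88 and -3.71 (-2.28 ± 0.32, adjusted p = 5e-05). The Huh1 falls at chrX:135994109-136086359 F (-3.89) and chr3:72202043-72221401 F (-2.50) rested on control arrays that differed widely, from -3.73 to 0.48 and from -6.85 to -2.63.

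5-FU raised a further set of intervals. On the R strand of chr2:20783219-20795366, above background on all arrays, Huh1 controls read -1.03, -0.95 and -0.85 and 5-FU arrays 1.92, 2.36 and 2.38, a rise of 3.16 ± 0.17 (adjusted p = 1.74e-08). Huh7 controls read -4.49, -4.27 and -4.47 and 5-FU arrays 0.04, 0.55 and 0.87, a rise of 4.90 ± 0.17 (adjusted p = 7.72e-11). The groups did not overlap in either line, and the DSF change was 0.37 in Huh1 and 1.27 in Huh7 (adjusted p = 0.0931 and 3.67e-05). The R strand of chr8:128174180-128181362 rose by 3.04 ± 0.33 in Huh1 and 3.31 ± 0.33 in Huh7 (adjusted p = 4.81e-06 and 9.15e-07). It also rose after DSF, by 2.82 in Huh1 and 1.11 in Huh7 (adjusted p = 9.4e-06 and 0.0133), the latter with adjusted p = 0.119 without the third slide. The R strand of chr6:64472442-64498999 read -5.13, -5.55 and -5.29 in Huh7 control and -2.59, -1.83 and -1.40 after 5-FU (3.38 ± 0.37), and rose at least 2.63-fold in Huh1. In Huh7 alone, chr7:22611226-22701411 R went from -6.95, -7.06 and -8.27, none above background, to -3.44, -3.09 and -3.37, at least 6.44-fold (adjusted p = 1.27e-07).

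The intervals that fell furthest after 5-FU in both lines mostly reached background. The R strand of chr2:216608542-216708445 stayed above it on all 18 arrays: Huh1 went from -3.20, -3.98 and -3.05 to -5.12, -5.34 and -4.67 (-1.63 ± 0.47, adjusted p = 0.0109, or -0.80 and 0.143 with spike-in scaling), and Huh7 from -1.97, -1.92 and -2.69 to -3.42, -5.03 and -5.86 (-2.58 ± 0.47, adjusted p = 0.000298). The F strand of chr2:216462380-216469880 changed by -2.58 and -2.74 in Huh1 and Huh7. The F strand of chr14:56156722-56183472 fell at least 2.49-fold in Huh1 (1.91 to 3.74 with 1 control array left out) and 2.05-fold in Huh7, and chr11:119369481-119371336 F fell at least 2-fold in Huh1 and by 2.77 on the log2 scale in Huh7. For chr16:72314424-72332999 F the fall was at least 1.92-fold in Huh7, and in Huh1 neither group was above background. In single lines, chrX:135994109-136086359 F fell at least 28.5-fold in Huh1, from -3.73, -1.03 and 0.48 to -7.97, -8.32 and -8.28, a bound of 14.7-fold without the third control array and 63.3-fold without the first, and chr6:125262305-125266585 R at least 2.61-fold. In Huh7, chr4:124866724-124883573 F fell at least 4.9-fold (3.15 to 6.43 with 1 control array left out) and chr1:43431263-43452013 F at least 4.96-fold.

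**Figure D3:**
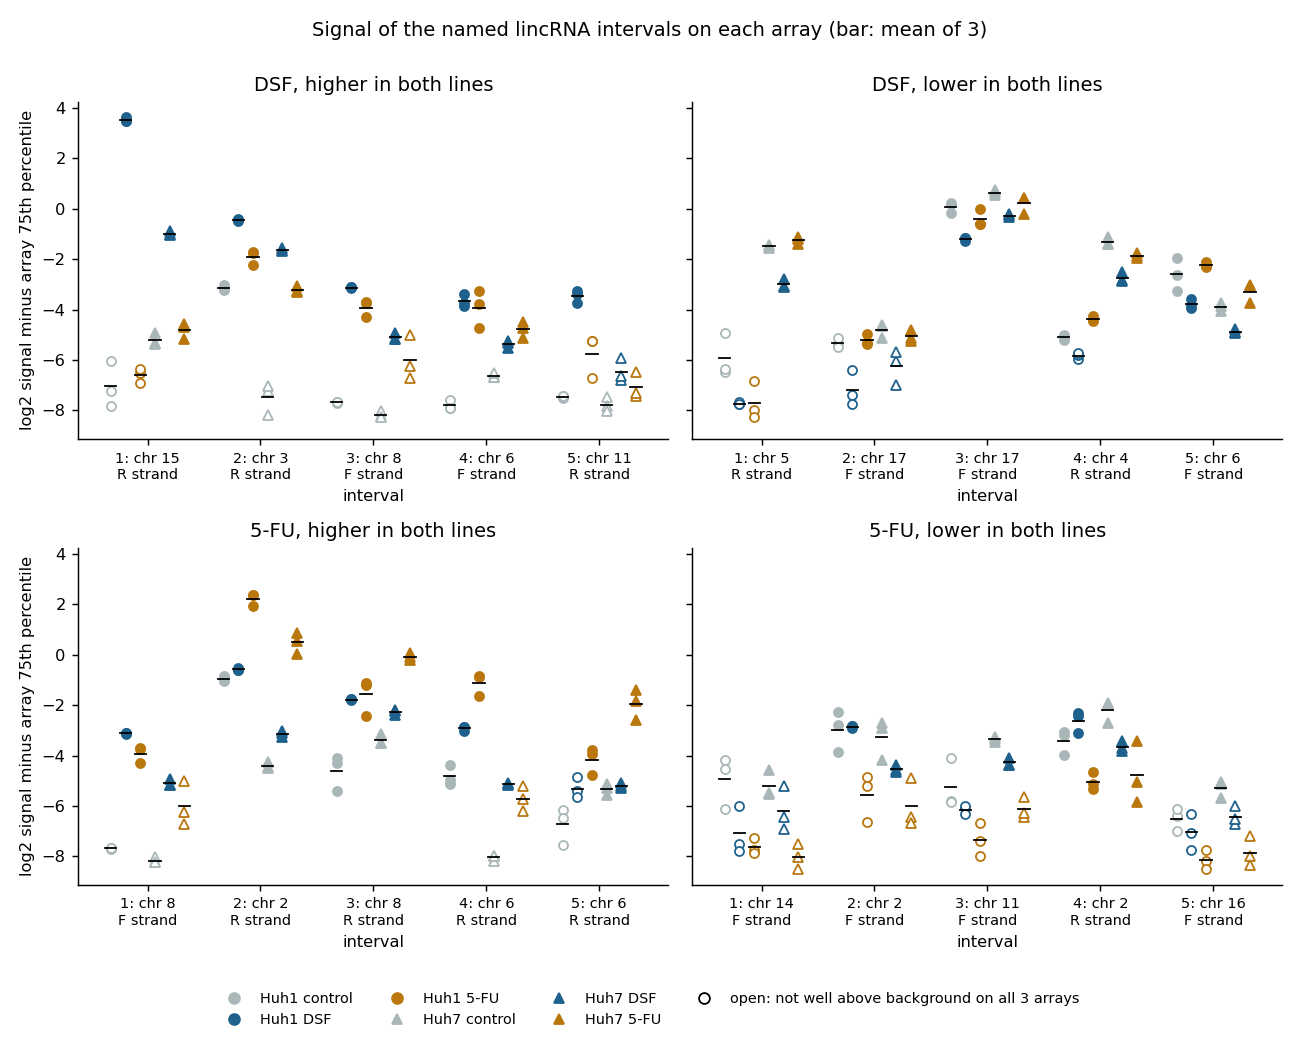
Log2 signal minus the array's 75th percentile (y axis) of the 5 intervals with the largest mean rise or fall over both lines for each drug (x axis, with chromosome and strand). Each symbol is 1 array (circles Huh1, triangles Huh7; grey control, blue DSF, orange 5-FU), bars are means of 3, and open symbols mark groups not above background on all 3 arrays; chr15:74770410-74782627 R, first in the top left panel, went from -7.83, -6.03 and -7.24 to 3.64, 3.48 and 3.48 after DSF in Huh1.

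A few intervals were called in opposite directions in the lines. The F strand of chr2:217380530-217421230 rose in Huh1 with both drugs, from -6.13, -5.66 and -5.04 in control to -3.42, -3.29 and -3.81 after DSF and -4.19, -3.88 and -3.84 after 5-FU (2.10 and 1.64, adjusted p = 9.47e-05 and 0.000687). In Huh7 it fell with both, from -3.75, -3.22 and -3.97 to -6.24, -6.22 and -5.93 after DSF and -5.46, -6.78 and -6.07 after 5-FU (-2.49 and -2.46, adjusted p = 2.35e-05 and 1.23e-05). The treated and control arrays did not overlap in any of these comparisons, and the responses of the lines differed by -4.59 for DSF and -4.10 for 5-FU (interaction, adjusted p = 3.82e-06 and 1.09e-05). After DSF, chr13:104132524-104237799 R changed by 1.49 in Huh1 and -2.42 in Huh7, and chr15:79198170-79208745 R by 1.66 and -1.74. In Huh1 no control array of these intervals was above background, and 1 and 2 DSF arrays were. The Huh7 fall of the latter had adjusted p = 0.00986, and 0.264 without the third slide. After 5-FU, chr5:67089045-67101066 F rose by 3.20 ± 0.15 in Huh7 (adjusted p = 5.51e-10), from -6.32, -6.13 and -5.80 to -2.64, -3.20 and -2.80, whereas no control or 5-FU array of Huh1 was above background, so its direction in Huh1 (-0.72, or 0.12 with spike-in scaling) was not measured. Over all tested interval probes, the DSF response differed between the lines for 1143 (26.0%, against 40.4% of all probes) and the 5-FU response for 868 (19.7%, against 36.6%). For DSF, the median difference over the tested interval probes was 0.19, and 0.011 without the third slide.

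Set directly against each other, DSF and 5-FU differed at 1383 interval probes in Huh1 (856 higher with DSF and 527 lower, 31.4%, against 49.3% of all probes, 28.7% higher and 20.6% lower) and at 2271 in Huh7 (1721 and 550, 51.6%, against 60.6% of all probes, 35.6% and 25%). In Huh7 1235 were called without the third slide and 1296 with slide as a block, and in Huh1 2560 with normexp and 2641 with spike-in scaling.

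At some loci with many overlapping intervals neighbouring probes changed together and by strand, and at others they did not. The loci described next hold a named interval or a run of successive intervals called the same way in both lines, and at least 10 tested probes. They were picked for description after their values had been seen. At chr9:132236854-132275963, 25 of 26 probes were tested, 22 to the F strand and 3 to the R strand. After DSF, 21 of the 22 F probes were called lower in Huh1 and 18 in Huh7, with medians of -0.80 and -0.54 on the log2 scale, and none of the 3 R probes was called in either line. In chr9:132251336-132267691 on the F strand, control arrays read 1.52, 1.61 and 1.52 in Huh1 and 1.21, 1.25 and 1.21 in Huh7, and DSF arrays 0.64, 0.59 and 0.66 and 0.61, 0.45 and 0.52 (-0.92 and -0.69, adjusted p = 4.51e-07 and 6.44e-06). All 3 DSF arrays lay below all controls in both lines. The locus held the longest run found for DSF, 8 successive interval strands of chr9:132251021-132267691, whose changes ran from -0.93 to -0.71 in Huh1 and from -0.69 to -0.42 in Huh7. Across the scalings run, 20 to 22 of the 25 probes were called lower in Huh1 and 18 to 20 in Huh7, with 18 in Huh7 also without the third slide.

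The locus chr6:3897476-3911910 rose along the R strand after 5-FU in Huh1. All 10 probes to the R strand were called higher there, by 0.77 to 4.75, with a median of 2.81 on the log2 scale. Of the 7 tested F probes 2 were called, both higher. The R interval chr6:3900836-3901969, for example, read -6.29, -7.63 and -7.65 in Huh1 control, none above background, and -2.96, -2.24 and -2.13 after 5-FU, at least 8.67-fold higher (adjusted p = 2.89e-06). It was above background on no Huh7 array of control, DSF or 5-FU. In Huh7, 5 of the 10 R probes were called higher after 5-FU and 1 lower. The R interval chr6:3897476-3911792 was that exception: it went from -2.69, -3.35 and -2.85 to -0.54, 0.16 and 0.18 in Huh1 (2.90, adjusted p = 1.62e-06) and from -2.77, -2.49 and -3.53 to -3.62, -4.02 and -4.48 in Huh7 (-1.11, adjusted p = 0.00331). The R interval chr6:3897476-3911798, which differs from it by 6 bases at an end, rose in both lines (3.69 in Huh1, and at least 1.21-fold in Huh7). With normexp, 0 probes of the locus were called higher and 10 lower after 5-FU in Huh7, and 11 higher and 3 lower in Huh1. DSF also raised the locus, with 8 R probes called higher in Huh1 and 7 in Huh7, and none lower. Over both strands 8 probes were called higher after DSF in Huh7, and 1 with normexp or 5 without the third slide.

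**Figure D4:**
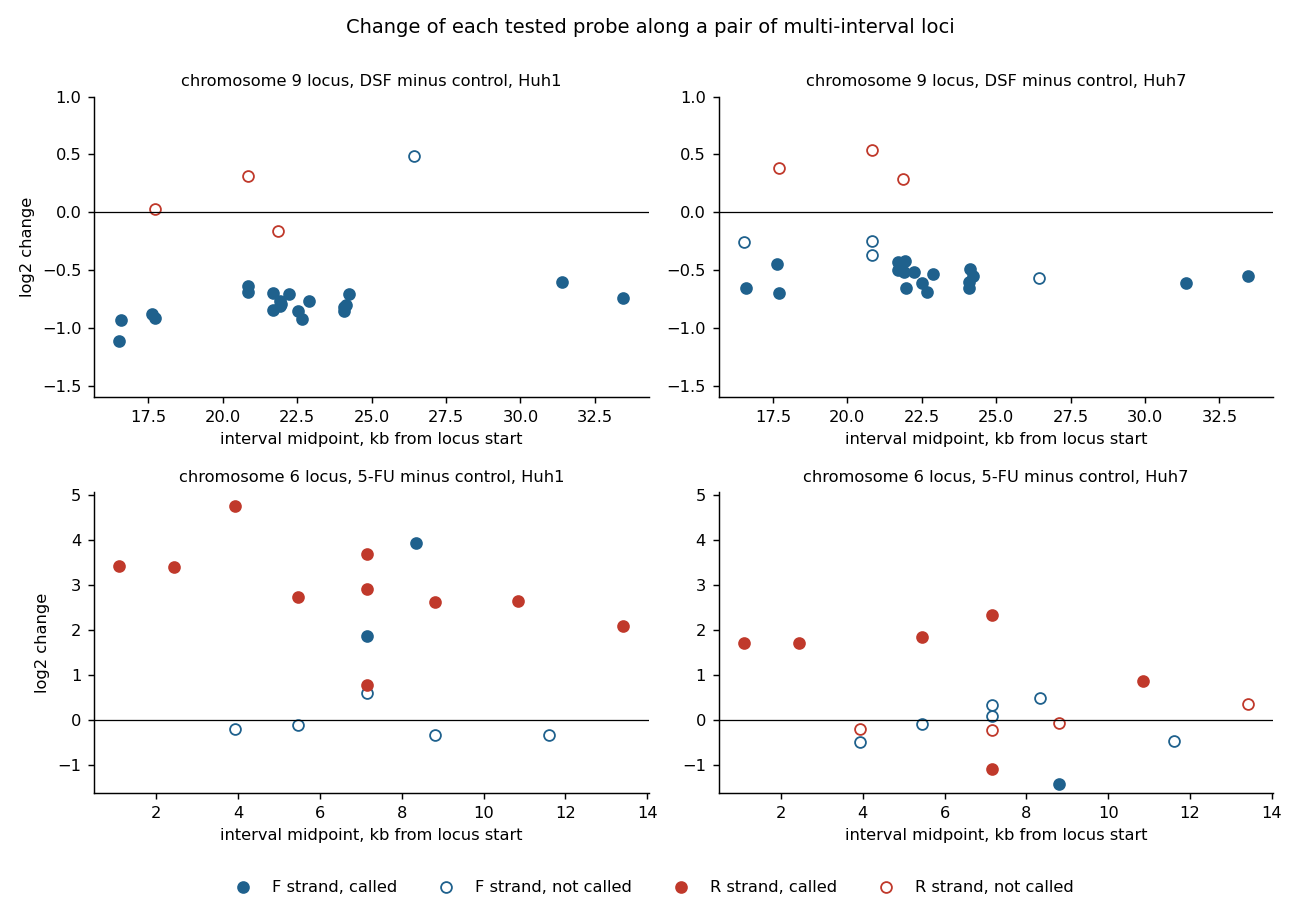
Log2 change (y axis) of each tested probe against the midpoint of its interval, in kb from the locus start (x axis), for DSF at the chromosome 9 locus (top) and 5-FU at the chromosome 6 locus (bottom), in Huh1 (left) and Huh7 (right); blue is the F strand, red the R strand, and filled points were called. On chromosome 9, 21 F probes in Huh1 and 18 in Huh7 were called lower and no R probe was called; on chromosome 6, all 10 R probes were called higher in Huh1, while in Huh7 5 rose and 1 fell.

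At chr5:66563849-67198428 the strands went apart after 5-FU in Huh7. Of 6 tested F probes 5 were called higher, by 1.25 to 3.37, and of 7 tested R probes 4 were called lower, by -1.0 to -0.70 on the log2 scale. The falls were not called with spike-in scaling, under which 8 probes were higher and 0 lower. At chr6:30255819-30293571, 12 of 17 tested R probes were called higher after 5-FU in Huh1 and 11 in Huh7, by medians of 0.54 and 0.64 over the R probes, whereas none of the 3 F probes was called in Huh1 and 1 in Huh7. The other R probes called were 2 in each line, and these fell, by -0.85 and -0.46 in Huh1 and by -2.16 and -2.10 in Huh7. With spike-in scaling 18 probes of the locus were called higher and 0 lower in Huh1, where the lowest change was -0.02. In Huh7 17 were then higher and 2 lower. At chr7:105517604-105564714, 8 of 11 probes fell after 5-FU in Huh1 and 7 in Huh7, on both strands, and 7 fell after DSF in Huh1. With spike-in scaling the 5-FU counts turned, to 3 rises and 0 falls in Huh1 and 9 rises and 1 fall in Huh7. At chr5:1130775-1186275, 9 of 14 probes fell after DSF in Huh7, 8 of them on the R strand, where 2 probes rose, by 0.70 and 0.76. The median change of the 14 was -1.12 and the highest 0.76. Without the third slide these were -1.25 and 0.53. With slide as a block 1 probe of the locus was called higher and 8 lower. In Huh1 1 probe fell, at chr5:1175554-1178709 R, above background on 1 Huh1 control array only, and median scaling called 6. In control cells 8 R probes were higher in Huh7 than in Huh1, by 1.87 to 7.84 on the log2 scale. Probes of the same strand were called both ways at other loci too. At chr2:70212746-70313395, 4 R probes were higher and 5 lower after 5-FU in Huh7, although spike-in scaling left 5 rises and 0 falls over both strands. At chr8:127813702-128531243, 3 R probes were higher and 4 lower after DSF in Huh7. Interval midpoints of these rises lay 236.6 to 391.4 kb from the locus start, and those of the falls 499.4 to 553.9 kb. Over both strands 4 probes were higher and 4 lower, and with slide as a block 2 and 3. After 5-FU in Huh1, 3 R probes were called higher and 3 lower. The intervals of those 3 falls had no Huh1 control array above background, so their direction was not measured. The R strand of chr2:216473880-216713730 had 3 probes higher and 1 lower after 5-FU in Huh1 and 1 and 1 in Huh7. At chr8:561925-609000, 3 of 4 F probes were higher after DSF in each line and 1 lower in Huh1, and of 6 R probes 2 were higher and 1 lower in Huh1. The F probe called lower in Huh1 (-0.55) was called higher in Huh7 (0.76). A further F probe was called higher in Huh1 only (1.17, against 0.14 in Huh7).

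Across all intervals with both strands measured, the strands were often detected differently. Of 2012 such intervals, 382 had both strands above background on all 18 arrays, and 220 had 1 strand on all 18 and the other on none. Of 784 with both strands tested, 17 had both strands called the same way after DSF in Huh1, 14 in opposite ways and 235 on 1 strand only. After 5-FU in Huh7 the counts were 87, 41 and 340. Of the opposite pairs, 3 were named by the size of the fitted difference, all after 5-FU in Huh7. One was chr16:24474974-24486974. Its F strand went from 3.84, 3.75 and 3.83 to 1.56, 1.63 and 1.52 (-2.24 ± 0.10, adjusted p = 6.93e-10), and its R strand from background to at least 1.24-fold higher (1.28 ± 0.41, adjusted p = 0.0147). With normexp the R change was -0.07, so the opposite direction was not kept. At chr10:89908970-89919320 the F strand rose at least 1.94-fold (1.26 to 2.60 with 1 array left out) and the R strand changed by -2.07, and at chr2:70267946-70313395 the F strand changed by -0.67, or 0.31 with spike-in scaling, and the R strand by 2.62. Pairs of probes to the same strand of an interval gave a reference for these counts: of 341 interval strands with at least 2 tested probes, 100 had 2 or more called the same way after 5-FU in Huh7 and 6 had probes called in opposite ways.

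The control cells of the lines differed from each other at many interval probes. In Huh7 control, 916 were higher and 1376 lower than in Huh1 control (52.1%, against 70.9% of all probes, 34.6% higher and 36.3% lower), and arrays did not overlap for 59.0% (77.4% of all). With median scaling the counts were 750 and 1865, and with quantile normalization 807 and 1678. Higher calls were then 28.7% and 32.5% of the interval probe calls, against 40.4% and 47.9% over all probes. The control arrays of the lines lay on different slides, and with slide as a block the counts were 640 and 960. 4 overlapping R intervals of one locus were the highest in Huh7. The interval chr8:128301935-128324351 read 1.41, 1.42 and 1.53 in Huh7 control and -7.57, -7.50 and -7.51 in Huh1 control, none of these above background, at least 129-fold higher (adjusted p = 5.92e-17), and the other 3 had bounds of up to 125-fold. Under DSF in Huh7 it read 0.73, 0.46 and 0.40 (-0.92 ± 0.11, adjusted p = 1.19e-05). The reverse held for chr13:113925599-113933724 F, with 4.49, 4.34 and 4.25 in Huh1 control and -6.84, -5.58 and -5.91 in Huh7 control, at least 1180-fold lower in Huh7 (adjusted p = 4.46e-14).

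The locus chr15:25239838-25368649 was lower in Huh7 mostly on the F strand. Of its 43 probes 19 were tested and 15 were above background on no array. In Huh7 control 17 of the 19 were called lower than in Huh1 and 0 higher, with 15 to 17 lower under the scalings run and 12 with slide as a block. All 12 tested F probes were called lower, with a median of -2.42 on the log2 scale. Of 7 tested R probes 5 were called lower, by -0.81 to -0.35, with a median of -0.39 over the 7. The median over all tested interval probes was -0.16. The F interval chr15:25332807-25334252 read -1.09, -1.27 and -0.86 in Huh1 control and was above background on no Huh7 array, at least 30.1-fold lower (adjusted p = 8.4e-13). Also higher in Huh1 were chr10:4944575-4977950 F (at least 22.2-fold) and chr5:95351569-95628894 F (at least 22.5-fold).

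A list of 25 long noncoding RNAs known by name, drawn up apart from the interval probes, gave a reference with known identities. Of these, 21 had a named probe and 20 were tested. Over all tested probes, 44.3% and 46.9% were called after DSF and 48.3% and 57.2% after 5-FU, in Huh1 and Huh7. Among the 20 RNAs, DSF gave 9 calls higher and 6 lower in Huh1. Of these calls, JPX (higher) and HOTAIR (lower) had no Huh1 control or DSF array above background. In Huh7 it raised 8 and lowered 1, or 5 and 0 without the third slide. 5-FU raised 7 and lowered 5 in Huh1 and raised 8 and lowered 6 in Huh7, and HOTAIR in Huh1 and H19 in Huh7 are among these falls without an array above background in control or 5-FU. These counts turned with spike-in scaling, to 17 rises and 1 fall in Huh1 and 15 rises and 3 falls in Huh7. UCA1, an RNA first described in bladder cancer, rose with both drugs in both lines, by 2.53 and 2.16 after DSF and 2.02 and 2.92 after 5-FU in Huh1 and Huh7. SNHG12, the host RNA of small nucleolar RNAs, rose after DSF by 0.88 and 0.82. EPB41L4A-AS1, an antisense RNA, rose after DSF by 0.88 and 0.74 and changed by -0.78 and -1.42 after 5-FU, or by 0.05 and -0.44 with spike-in scaling. H19, an imprinted fetal RNA, changed by -2.42 after 5-FU in Huh1 (adjusted p = 0.0106) and was above background on 10 of 18 arrays.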

How the data were processed

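The authors deposited Agilent Feature Extraction 10.7.1.1 output of 18 one-color arrays, with linear spot intensity after background subtraction and detrending, not scaled between arrays, and a table of normalized intensity that lay within 0.05 log2 of a constant of the spot values for 100% of probes. Of the other deposited columns used, the scanner flags and annotation are neither intensity nor score. Here the log2 processed intensity was averaged over unflagged spots and each array's 75th percentile was subtracted. Left out were 78 probes without an unflagged spot on an array, 18 of them lincRNA interval probes. The systematic names carry a lincRNA prefix before the interval, and the rule was read after it. In the A_19 series 603 probes named by transcript and 15 with an interval of another build were not taken. Groups and replicate numbers come from the sample labels, and the methods describe independent experiments in triplicate.

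Probes that passed the flag for signal well above background on every array of 1 or more groups entered limma 3.58.1 (R 4.3.3, 6 group means, Benjamini-Hochberg over 29760 probes), a step also tested on simulated data. Where a group lay at background on all its arrays, a bound is given: the mean of the other group against the lowest signal above background. Alternatives were normexp on the median spot and background signal (offset 50; mean spot signal was planned and was not used), quantile, median and spike-in scaling (7 probes), the authors' table, 2 other filters, only the compared groups, replicate and slide blocks, outlier spots kept and each array left out. Leaving out the third slide was added after seeing the data. Intervals were named by rule: per drug the 5 largest rises and falls in both lines, the 3 largest per line and 3 opposite between lines, the 4 highest in each control, 3 opposite strands, and the longest runs. The intervals, lists and rules were chosen with earlier results of these data known. Summaries and plots used numpy 2.4.6, matplotlib 3.10.9 and pandas 2.3.3 (Python 3.11.15). The number of arrays limits the precision.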

Additional observations from a re-analysis of the deposited data

Results flagged for a closer look

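The response to a drug differed between the lines for named intervals, by the interaction term of the limma fit with adjusted p under 0.05. Values given without a test are marked. Values are the log2 change in Huh7 minus that in Huh1. These intervals were named for their changes on the same arrays, and where a group lay at background the value is no bound on the true difference. Where that holds, larger, smaller, higher and lower below order the fitted values. No explanation of these differences was tested.

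For DSF, the response was smaller in Huh7 at chr15:74770410-74782627 R (-6.33, adjusted p = 3.06e-07), where both lines rose. The values at chr14:101296681-101298460 F (-5.34) and chr14:101430757-101433381 F (-3.77) are given without a test. Both were above background in Huh1 only and passed the filter through the Huh1 DSF group alone. The fitted response was also smaller in Huh7 at chr8:590406-605477 F (-1.48), chr6:43770929-43810362 F (-2.89) and chr11:130714094-130732005 R (-2.68). At the last of these no Huh7 control or DSF array was above background, so the direction of the difference was not measured. The response was larger in Huh7 at chr3:195441633-195441971 R (3.17) and chr6:147172226-147237021 R (2.97). Among falls, it lay lower in Huh7 at chr4:114757926-114773251 R (-0.70), chr2:102600227-102601998 F (-2.56), chr12:109563167-109568767 F (-1.82) and chr15:67276445-67351512 F (-2.02), and higher at chrX:135994109-136086359 F (3.80) and chr5:95351569-95628894 F (2.18), where Huh1 fell. Opposite responses gave chr2:217380530-217421230 F (-4.59), chr13:104132524-104237799 R (-3.91) and chr15:79198170-79208745 R (-3.40). Leaving out the third slide leaves 1 Huh7 DSF array. The difference was then -1.57 at chr8:590406-605477 F and 3.39 at chrX:135994109-136086359 F, and neither was called. The other DSF differences named here kept their direction.

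For 5-FU, the response was larger in Huh7 at chr3:195441633-195441971 R (3.03), chr2:20783219-20795366 R (1.73), chr7:22611226-22701411 R (4.66) and chr2:70267946-70313395 R (2.21). The fitted response was smaller in Huh7 at chr8:590406-605477 F (-1.58), chr6:43770929-43810362 F (-2.02), and within the chr6:3897476-3911910 locus at chr6:3897476-3911798 R (-1.36), chr6:3900836-3901969 R (-4.94) and chr6:3905468-3906154 F (-3.46). At chr6:43770929-43810362 F the rises are known as bounds only, at least 3.1-fold in Huh1 and 2.32-fold in Huh7. At chr6:3900836-3901969 R no Huh7 control or 5-FU array was above background, so the direction of the difference was not measured. The response lay lower in Huh7 at chr4:124866724-124883573 F (-3.42), chr1:43431263-43452013 F (-3.80) and chr16:24474974-24486974 F (-1.05), and higher at chrX:135994109-136086359 F (5.60) and chr6:125262305-125266585 R (3.49), where Huh1 fell. At chr6:125262305-125266585 R the Huh7 5-FU arrays read -8.20, -6.70 and -3.34 and the adjusted p was 0.04, or 0.0614 in the fit without the third slide. Opposite responses gave chr2:217380530-217421230 F (-4.10) and chr6:3897476-3911792 R (-4.01). At chr5:67089045-67101066 F (3.92) Huh7 rose, and no Huh1 array was above background in control or after 5-FU.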

How the results depend on the processing

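With 3 arrays per group and dim signals, small changes are not resolved and a bound holds for this background correction only. Leaving out a single array at a time, 744 to 930 interval probes were called for DSF in Huh1, 921 to 1892 for DSF in Huh7 (609 to 1501 higher and 293 to 391 lower), 1126 to 1398 for 5-FU in Huh1, 1548 to 1621 for 5-FU in Huh7 and 2068 to 2157 between controls. For DSF in Huh7 the lowest count was without the second DSF array and the highest without the first, which leaves the 2 arrays of the third slide. With slide as a block, DSF in Huh7 called 555 (308 higher and 247 lower) and without the third slide 499 (281 and 218). The difference of the DSF responses between lines was then called at 601 and 605, and DSF against 5-FU in Huh7 at 1296 and 1235.

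For DSF in Huh1 the count of lower calls was 729 with quantile normalization, 908 with median scaling, 127 with spike-in scaling and 185 at over 1.5-fold with an unadjusted p under 0.05, the first of 3 parts of the methods' selection rule. For DSF in Huh7 spike-in scaling called 883, of them 434 higher. For 5-FU in Huh1, normexp called 2556 (381 higher and 2175 lower) and spike-in scaling 3205 (3170 and 35). No filter on dim probes, with more probes tested, called 2338, of them 1741 lower, and that part of the methods' rule 489 lower. For 5-FU in Huh7, normexp called 2751, of them 2310 lower, and spike-in scaling 3280 (3160 and 120). After 5-FU normexp called 58.1% of interval probes in Huh1 and 62.5% in Huh7, against 61.4% and 68.2% of all probes. Spike-in scaling called 72.9% and 74.6%, against 76.4% and 80.1%. The difference of the DSF responses was 760 with spike-in scaling, and DSF against 5-FU in Huh1 was 2560 with normexp and 2641 with spike-ins. The median detection share was 75.27% by the flag for a signal significantly above background and 61.98% when intervals with any detected probe were counted. The cause of these shifts was not tested.

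Among named intervals, 3 values changed sign: chr5:67089045-67101066 F after 5-FU in Huh1 (0.12 with spike-in scaling), chr16:24474974-24486974 R after 5-FU in Huh7 (-0.07 with normexp) and chr2:70267946-70313395 F after 5-FU in Huh7 (0.31 with spike-in scaling). Of 1542 alternative values for 90 effects, 45 lost their call with the direction kept. Replicate numbers did not pair the arrays (correlations of -0.093 to 0.0076 between same-numbered arrays of different groups). With the replicate block, the lincRNA interval probes called, DSF minus control in Huh1, were 898, and in Huh7 1339. For 5-FU they were 1334 and 1723. All 90 effects kept their call under it.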
